A study of Drosophila melanogaster with 2 samples.

Results

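Su(var)2-HP2-GFP binding was read at the promoters of 61 protein-coding genes of Drosophila melanogaster chromosome 4, of the 80 that the chromosome carries and of 13968 on all main chromosomes. The 61 are all annotated protein-coding genes of the chromosome apart from 19 that were left out by name or by family, mainly axon guidance and patterning genes and genes for ribosomal, Mediator and respiratory chain proteins. The rule used names and families and no binding value, though earlier results of these data were known when it was made. The single group of the study was whole embryos aged 0 to 10 h from a transgenic line in which GFP is joined to the C terminus of Su(var)2-HP2, in 2 biological replicates with the numbers 4 and 6. Chromatin sonicated to fragments of 200 to 800 bp was precipitated with an antibody against GFP and sequenced (ChIP-seq). The promoter that drives the tagged protein, and whether untagged protein was also present, are both unknown from the labels. There was no second genotype, stage or treatment, so every comparison is between genes.

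Su(var)2-HP2 is a partner of HP1, the chromodomain protein that binds methylated histone H3 in silent chromatin. Chromosome 4, the smallest chromosome of the fly, is a mosaic: it is rich in repeats and in HP1 along most of its length, and yet its genes are densely packed and many are transcribed, with open chromatin at their start sites. Whole embryos mix all cell types, so binding in few cells and weak binding in many cells cannot be told apart in these data.

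Each peak was placed by its summit, the base of highest signal, and each gene was given the highest-signal summit within 500 bp of any of its start sites. Summits were first taken from the deposited list of 2006 peaks that the submitters kept after IDR, a filter on the reproducibility of peaks between replicates. Those 2006 peaks were the 2006 of highest signal in the pooled list, so having an IDR summit amounts to passing one cutoff on pooled signal. Of the 61 genes, anne had the highest signal. RhoGAP102A and Kif3C had no summit within 500 bp of a start site in any of the 4 lists. The start site of Kif3C still lay inside a called interval. Promoters are shown for anne, for 4 genes with high signal and a matched sequence element, and for RhoGAP102A and Kif3C (RefSeq genome, dm6 coordinates). They lie at chr4:132060-132249 on the plus strand for anne, chr4:359778-359967 on the plus strand for Hcf, chr4:1196819-1197008 on the minus strand for PIP4K, chr4:307933-308122 on the plus strand for Rad23, chr4:1230684-1230836 on the minus strand for Dyrk3, chr4:254837-255026 on the plus strand for RhoGAP102A and chr4:1147306-1147495 on the plus strand for Kif3C. Capitals mark TATCGATA, the DNA replication-related element, in Hcf and PIP4K, and GGTCACAC, a core promoter element of fly housekeeping genes, in Rad23 and Dyrk3. Each sequence reads 5′ to 3′ along the gene's strand, with the start site at base 161 counted from its 5′ end, or at base 124 for Dyrk3.
anne: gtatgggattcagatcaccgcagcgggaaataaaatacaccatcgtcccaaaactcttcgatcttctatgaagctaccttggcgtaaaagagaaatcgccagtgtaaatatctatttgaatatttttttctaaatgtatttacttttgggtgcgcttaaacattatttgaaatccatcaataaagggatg
Hcf: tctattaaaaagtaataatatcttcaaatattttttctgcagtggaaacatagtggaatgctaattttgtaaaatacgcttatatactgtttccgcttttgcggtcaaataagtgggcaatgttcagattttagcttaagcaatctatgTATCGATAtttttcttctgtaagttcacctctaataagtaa
PIP4K: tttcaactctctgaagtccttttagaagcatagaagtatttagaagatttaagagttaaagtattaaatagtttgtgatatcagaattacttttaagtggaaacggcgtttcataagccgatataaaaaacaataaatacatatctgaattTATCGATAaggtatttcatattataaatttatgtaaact
Rad23: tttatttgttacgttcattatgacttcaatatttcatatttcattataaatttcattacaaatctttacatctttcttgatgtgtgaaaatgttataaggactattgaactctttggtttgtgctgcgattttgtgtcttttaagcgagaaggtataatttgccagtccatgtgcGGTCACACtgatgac
Dyrk3: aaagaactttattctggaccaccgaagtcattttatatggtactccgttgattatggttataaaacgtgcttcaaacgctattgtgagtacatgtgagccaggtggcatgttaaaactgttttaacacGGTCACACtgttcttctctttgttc
RhoGAP102A: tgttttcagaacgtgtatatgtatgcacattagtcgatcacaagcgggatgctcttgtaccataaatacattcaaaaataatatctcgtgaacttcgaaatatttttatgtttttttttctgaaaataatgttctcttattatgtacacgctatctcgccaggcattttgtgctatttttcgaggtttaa
Kif3C: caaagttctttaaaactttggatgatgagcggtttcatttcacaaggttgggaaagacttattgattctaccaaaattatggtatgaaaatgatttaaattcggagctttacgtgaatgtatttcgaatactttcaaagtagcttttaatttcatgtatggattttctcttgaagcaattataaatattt

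On these sequences the pooled summit lay at base 69 for anne, base 71 for Hcf, base 30 for PIP4K, base 92 for Rad23 and base 17 for Dyrk3. All 5 summits thus lay upstream of the start site. In the 4 promoters with capitals the summit lay apart from the element: the first base of the element was 79 bp downstream of the summit in Hcf, 122 bp in PIP4K, 84 bp in Rad23 and 112 bp in Dyrk3. This did not hold for every gene with an element: at Actbeta, whose promoter is not shown, TATCGATA began at position -117 from the start site and the summit lay at -111, within the element.

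The signal value of a peak is the authors' score, on a scale that neither labels nor file headers state. To set lists side by side, each signal was divided by the median signal of the 2006 strongest peaks of its own list, and the quotient is called relative signal. The medians used were 204 in the IDR list, 127 in replicate 4 and 90.1 in replicate 6. The files hold no read numbers, which leaves depth unknown. Intervals of shares cover counting error only.

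An IDR summit lay within 500 bp of a start site in 39 of the 61 genes, which left 22 without one. The share was 63.9% (Wilson 95% interval 51.4 to 74.8), against 8.84% of all protein-coding genes. In the 2006 strongest peaks of replicate 4 the count was 43 genes, 70.5%, against 8.46% of all protein-coding genes. In those of replicate 6 it was 36 genes, 59%, against 8.74%. The mean of the replicates was 64.8% ± 8.11 (SD, n = 2), so the replicates differed by several genes while both stood far above the background. Among the 19 other genes of chromosome 4 the share was 63.2% (41 to 80.9), close to that of the 61. It was 46.1% (39.2 to 53.2) of 193 pericentromeric genes and 8.01% (7.57 to 8.48) of 13672 genes on the chromosome arms. The intervals of the 61 genes and of the pericentromeric genes overlapped, and the arm interval lay apart from both. Neighbouring genes share peaks and are not independent, which these intervals do not take into account.

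Going down the pooled list of 30000 peaks, 56 of the 61 genes, 91.8%, had a summit at a start site, against 37.9% of all protein-coding genes. With the pooled summits of q-value under 0.05 the count was 54 genes, 88.5%, against 26.6% of all protein-coding genes. Most of the 22 genes without an IDR summit therefore had a weaker call within 500 bp of a start site rather than none. Calls were dense on the whole chromosome, at 1.17 pooled summits per kb, so a call that near is frequent away from promoters too.

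Where an IDR summit was present, its signal was high. Relative signal ran from 0.619 to 16.4 over the 39 genes, with a median of 8.12 and quartiles of 3.66 and 11.8. The medians were 6.81 in replicate 4 and 8.65 in replicate 6, a mean of 7.73 ± 1.3 (SD, n = 2). The median was 11.7 in 12 other chromosome 4 genes, 10.3 in 89 pericentromeric genes and 1.02 in 1095 arm genes. A relative signal above 2 was reached by 32 of the 39 genes, 82.1%, by 84.3% of the pericentromeric genes and by 18.7% of the arm genes. In size as in frequency the 61 genes thus stood nearer to the pericentromeric genes than to the arm genes. The numbers depend on the yardstick: the median was 3.97 against the mean of the strongest peaks and 51.1 against the median of the whole list.

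**Figure D1:**
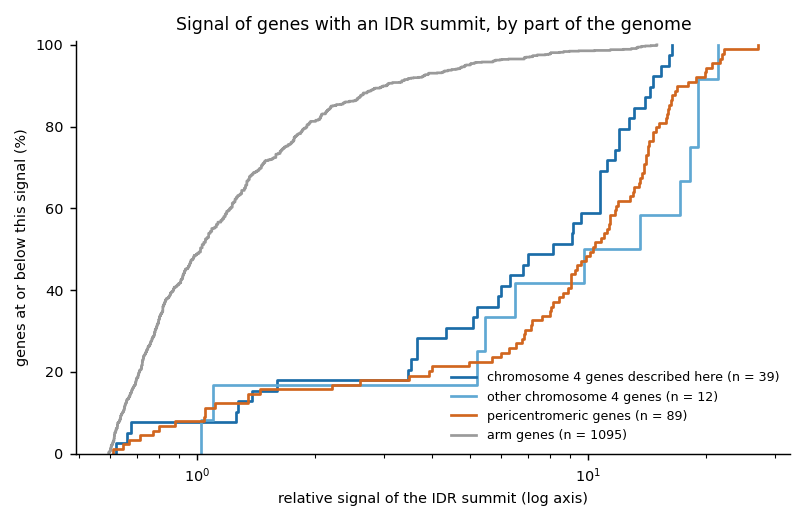
Cumulative share of genes (vertical axis, percent) at or below a given relative signal of the IDR summit (horizontal axis, log scale), for 39 chromosome 4 genes described here, 12 other chromosome 4 genes, 89 pericentromeric genes and 1095 arm genes. The curve of the 39 genes climbs mostly between 3.47 and 16.4, near the pericentromeric curve, and the arm curve reaches its midpoint at 1.02.

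The 39 genes fell into a larger strong class and a smaller weak class. The widest step between neighbours in rank, a ratio of 2.17, separated CG32017 at 3.47 from Mitf at 1.6. Above it stood 32 genes and below it 7, which were Mitf, Syt7, onecut, Ekar, myo, Actbeta and mav. All 32 strong genes were among the strongest peaks of both replicates, with no rank worse than 248 in replicate 4 and 288 in replicate 6. The classes were cut on pooled signal, which comes from both replicates, so high ranks in each are largely built into the cut. Of the 7 weak genes, mav, myo and Actbeta were missing from the strongest peaks of replicate 6. Across the 39 genes the log2 relative signals of the replicates had a Pearson r of 0.984, and across the 32 strong genes alone of 0.940. These are descriptions across genes that share libraries and, in part, peaks.

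**Figure D2:**
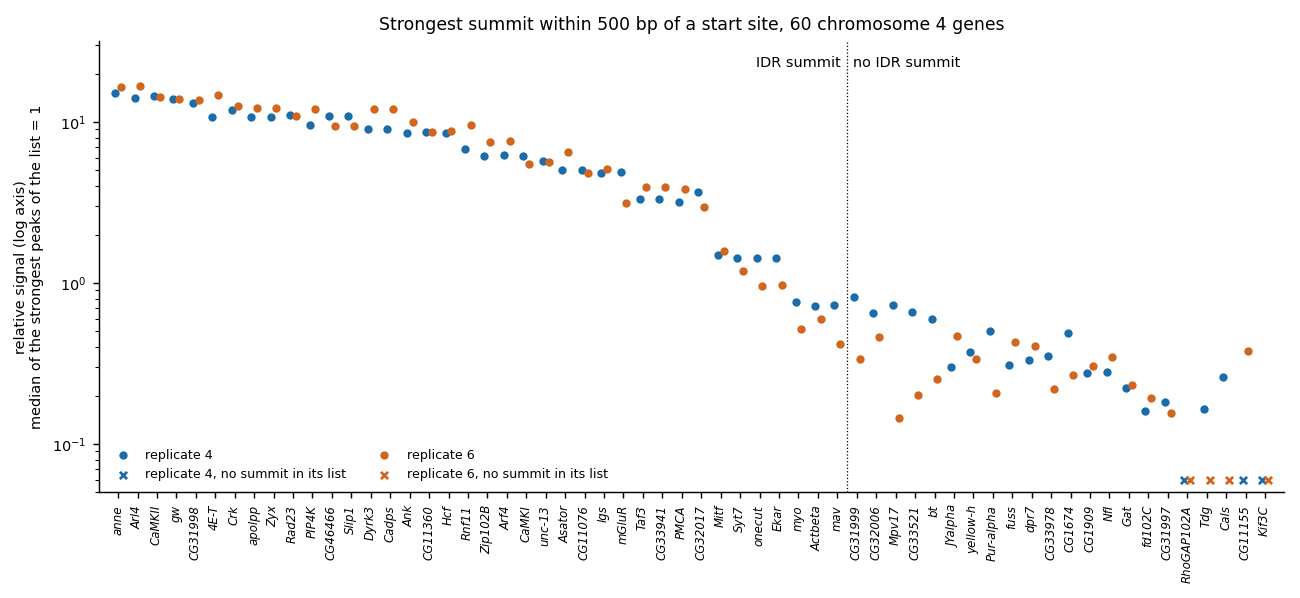
Relative signal (log axis) of the strongest summit within 500 bp of a start site for 60 of the 61 genes, in replicate 4 (blue) and replicate 6 (orange), ordered by pooled signal, with genes that have an IDR summit left of the dotted line. Crosses mark a replicate without a summit; RhoGAP102A and Kif3C have none in either replicate.

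Signalling genes had IDR summits at 8 of 9 genes, all above 2 and between 5.9 and 16.1. The share to set beside this and the role groups below is 63.9%, 39 of all 61 genes. Over all protein-coding genes it is 8.84%. Arl4 (FBgn0039889), a small GTPase gene of the ADP-ribosylation factor family, had a relative signal of 14.1 in replicate 4 and 16.7 in replicate 6. CaMKII (FBgn0264607), a calcium-dependent protein kinase of synapses, had 14.6 in replicate 4 and 14.4 in replicate 6, a mean of 14.5 ± 0.101 (SD, n = 2). Its summit, at position 1051510, lay 132 bp upstream of an internal start site and within an intron of the gene. Crk (FBgn0024811), an adaptor gene of receptor tyrosine kinase signalling, had 11.8 in replicate 4 and 12.5 in replicate 6. The phosphoinositide kinase gene PIP4K (FBgn0039924) had 9.56 in replicate 4 and 12 in replicate 6. Replicate 6 was thus the higher one for Arl4, Crk and PIP4K, and the replicates were level for CaMKII. The kinase genes Dyrk3, CaMKI and Asator had pooled values of 10.7, 6.32 and 5.9, and the small GTPase gene Arf4 had 6.82. RhoGAP102A was the only gene of the group without an IDR summit.

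Genes of RNA regulation and protein turnover had an IDR summit in 4 of 4 cases, between 8.12 and 14.7. Relative signal at gw (FBgn0051992), which encodes the GW182 protein of microRNA silencing, was 14 in replicate 4 and 13.9 in replicate 6. The summit lay at position 660711, 103 bp upstream of its start site. 4E-T (FBgn0052016), whose product holds the cap-binding protein in a repressed state, had 10.7 in replicate 4 and 14.7 in replicate 6, a mean of 12.7 ± 2.86 (SD, n = 2), the largest SD among the genes with an IDR summit. Rad23 (FBgn0026777), a ubiquitin receptor and DNA repair gene, had 11.1 in replicate 4 and 10.9 in replicate 6. Rnf11, a RING finger gene, was the lowest of the group at 8.12.

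Transport, lipid and mitochondrial genes had IDR summits at 5 of 7, from 3.52 to 16.4, a share near that of all 61 genes. anne (FBgn0052000), a gene of the P-type ATPase family, had the highest pooled signal of the 61 genes. It had 15.1 in replicate 4 and 16.6 in replicate 6, a mean of 15.8 ± 1.07 (SD, n = 2), with the summit at position 132128, 92 bp upstream of the start site. The replicates did not separate anne from Arl4, whose values enclosed those of anne, and both values of CaMKII lay below those of anne. apolpp (FBgn0087002), the main lipid carrier protein of the haemolymph, and Zyx (FBgn0011642), the focal adhesion protein zyxin, share a promoter and 1 summit at position 1061027, with 10.7 in replicate 4 and 12.3 in replicate 6. The zinc transporter gene Zip102B had a pooled relative signal of 7, and the calcium pump gene PMCA 3.52. JYalpha, a sodium pump subunit gene needed for male fertility, and Mpv17, of the mitochondrial inner membrane, had no IDR summit. Of 4 cytoskeleton and muscle genes, Zyx and the ankyrin gene Ank had IDR summits, at 12 and 9.61, and bt, the giant muscle protein projectin, and the kinesin gene Kif3C had none.

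The 3 genes for ligands of the TGF-beta family all had an IDR summit and all had a weak one. mav (FBgn0039914) had a relative signal of 0.726 in replicate 4 and 0.42 in replicate 6. Actbeta (FBgn0024913), the activin-like ligand, had 0.718 in replicate 4 and 0.594 in replicate 6. myo (FBgn0026199), myoglianin, had 0.761 in replicate 4 and 0.516 in replicate 6. Replicate 4 was higher in all 3 genes. The pooled values of 0.619 to 0.679 were the lowest 3 of the 39 genes and lay just above the smallest IDR signal of 0.594.

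Synapse, channel and cell surface genes had IDR summits at 6 of 10 genes, 4 of them above 2. That share was near the 63.9% of all 61 genes. The vesicle priming gene Cadps stood at 10.7, through a summit that it shares with the kinase gene Dyrk3. The potassium channel partner gene Slip1 also stood at 10.7, through the summit assigned to CG46466 as well, 346 bp upstream of the Slip1 start site. A weaker IDR summit lay nearer to Slip1, at 138 bp. The synaptic vesicle priming gene unc-13 had 5.98, the glutamate receptor gene mGluR 4.34 and the calcium sensor gene Syt7 1.38. Ekar (FBgn0039916), a kainate-type glutamate receptor subunit, was the lowest of the group, with 1.44 in replicate 4 and 0.966 in replicate 6. The GABA transporter gene Gat, the immunoglobulin family gene dpr7, the calsyntenin gene Cals and CG11155 had no IDR summit. Transcription and DNA-binding genes had IDR summits at 5 of 10, and only the host cell factor gene Hcf at 9.1, the Wnt pathway co-activator lgs at 5.09 and the TFIID subunit gene Taf3 at 3.66 exceeded 2. The developmental regulators onecut and Mitf were weak, at 1.27 and 1.6. NfI, Tdg, Pur-alpha, fd102C and fuss had no IDR summit. Among genes with a CG number only, 6 of 13 had one, and CG31998 was the highest at 14. yellow-h, of the yellow pigmentation family, had none. The role groups were drawn up with these values known, so their counts are descriptions.

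The direction of the replicate difference was not the same in the strong and the weak class. Among the 32 strong genes relative signal was higher in replicate 4 for 12 genes and in replicate 6 for 20, with a median log2 ratio of replicate 4 over replicate 6 of -0.11. Among the 7 weak genes it was higher in replicate 4 for 6 and in replicate 6 for 1, with a median of 0.56. Among 17 genes without an IDR summit that had a summit in both replicates the median was 0.22. Arm genes had medians of -0.09 above a relative signal of 2 and -0.07 at or below it, and pericentromeric genes had -0.30 and -0.28, a smaller step between classes in each. The weak class has 7 genes, and the difference between the classes was not tested.

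Most of the 22 genes without an IDR summit still had a weaker call within 500 bp of a start site. With 1.17 pooled summits per kb on the whole chromosome, many such calls are expected at any position. Whether calls were denser at these start sites was not tested. A pooled summit was present in 17 of them, with relative signal from 0.0914 to 0.587 and a median of 0.341, and 15 of the 17 had a q-value under 0.05. Nearest to the cutoff were mav at 0.619 above it and, below it, CG31999 at 0.587 and CG32006 at 0.57. CG31999 (FBgn0051999) had 0.814 in replicate 4 and 0.336 in replicate 6, and CG32006 (FBgn0052006) had 0.655 in replicate 4 and 0.459 in replicate 6. Mpv17 (FBgn0039930) had 0.732 in replicate 4 and 0.144 in replicate 6, a log2 ratio of 2.34, the widest difference between replicates among the 61 genes. All of these 3 were higher in replicate 4. CG33521 (FBgn0250819) had 0.658 in replicate 4 and 0.202 in replicate 6, bt (FBgn0005666) had 0.601 in replicate 4 and 0.254 in replicate 6, and Pur-alpha (FBgn0022361), a single-stranded nucleic acid binding protein, had 0.503 in replicate 4 and 0.206 in replicate 6. JYalpha (FBgn0267363) went the other way, with 0.3 in replicate 4 and 0.469 in replicate 6. yellow-h (FBgn0039896) was level, with 0.373 in replicate 4 and 0.336 in replicate 6. CG31999, CG32006, Mpv17 and CG33521 were among the strongest peaks of replicate 4, and 0 of the 22 genes were among those of replicate 6.

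No pooled summit was found at 5 genes. RhoGAP102A (FBgn0259216) and Kif3C (FBgn0039925) had none in any list. Tdg, the thymine DNA glycosylase gene, and Cals had a weak summit in replicate 4 only, at 0.166 and 0.26, and CG11155 had one in replicate 6 only, at 0.378. The absence at Kif3C and Cals was local, since an IDR summit lay 581 bp from the start site of Kif3C and 595 bp from that of Cals. Both start sites lay inside called intervals that hold the IDR summit of a neighbour. These were chr4:1146275-1148997 of CG32017 for Kif3C and chr4:1122433-1124734 of Arf4 for Cals. JYalpha, Tdg, Pur-alpha and CG33521 likewise had an IDR summit within 1000 bp. At the other extreme, 11 of the 22 genes had their nearest IDR summit over 10 kb away, up to 44807 bp for RhoGAP102A.

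Genes with and without an IDR summit alternated along the chromosome in short runs. The longest run without one held 6 neighbours, CG31999, yellow-h, CG1674, dpr7, RhoGAP102A and NfI, and was followed at once by 6 neighbours with one, Syt7, Rad23, Zip102B, Rnf11, PMCA and Hcf. The first run coincided with the longest distance between IDR summits on the chromosome, 96.6 kb from position 210190 to 306793, where the median distance was 1.49 kb. The stretch was not free of calls: it held 126 pooled summits, 1.3 per kb, against 1.17 per kb on the whole chromosome. Pooled summits with a q-value under 0.05 numbered 0.683 per kb in the stretch and 0.653 per kb on the whole chromosome. The highest relative signal inside it was 0.587, at CG31999. Without these 6 genes the count was 39 of 55. Next in length were a stretch of 90.5 kb that holds bt and one of 70.1 kb that holds fd102C.

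**Figure D3:**
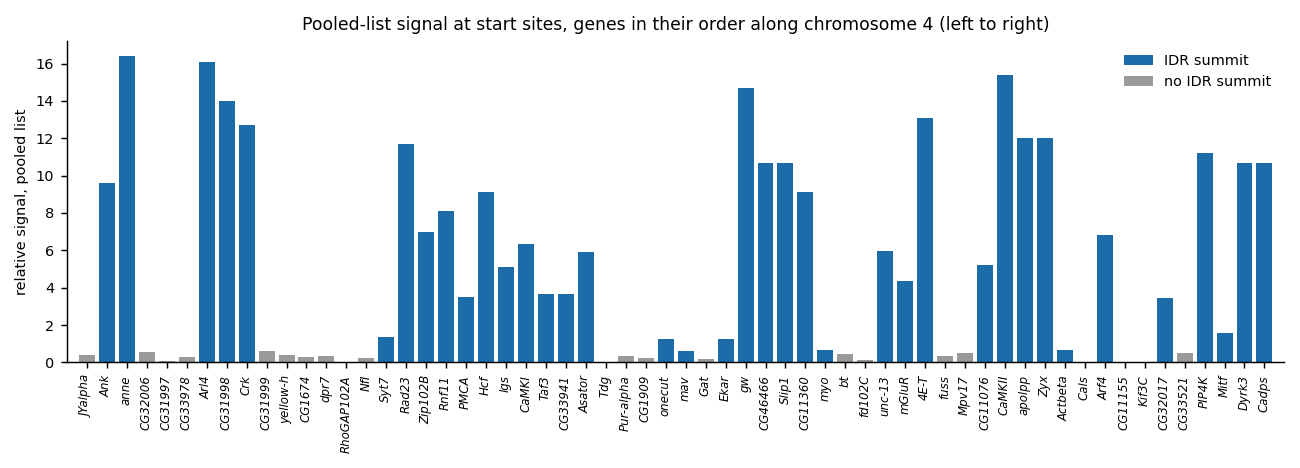
Pooled relative signal (vertical axis, linear, from 0) at the start sites of 60 of the 61 genes in their order along chromosome 4, not to distance, with genes that have an IDR summit in blue and the others in grey. High bars stand in runs such as Arl4 to Crk, and the 6 low bars from CG31999 to NfI mark the longest stretch without an IDR summit.

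Summits at the 39 genes lay just upstream of transcription. The median position was 94 bp upstream of the nearest start site, with quartiles of 132 and 37.5 bp upstream. The summit was upstream in 34 genes and downstream in 5, which were Ank, Zip102B, PMCA, mav and apolpp. It was within 150 bp upstream in 27 genes, 69.2%, against 50% of the 12 other chromosome 4 genes, 74.2% of pericentromeric genes and 42.9% of arm genes with an IDR summit. The median was 146 bp upstream in the 12 other chromosome 4 genes and 150 bp upstream in the arm genes, so the 12 stood nearer to the arm genes in position. Above a relative signal of 2 the share was 68.8% in the chromosome 4 genes described here and 46.8% in the arm genes, whose signal was lower even there, so position was not compared at equal signal. By annotation 27 of the 39 summits were outside the gene, 6 in a 5′ UTR, 6 in an intron and 0 in a coding exon. The summits of the replicates lay a median of 27 bp apart and at most 76 bp apart. The median position was -108 bp with replicate 6 alone and -91 bp with replicate 4 alone.

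**Figure D4:**
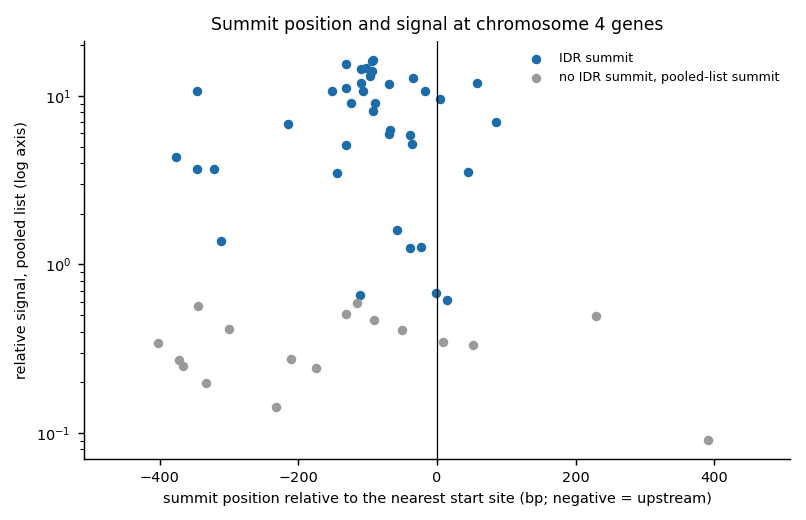
Pooled relative signal (log axis) against the position of the summit from the nearest start site (bp, negative upstream), for 39 genes with an IDR summit (blue) and 17 genes with a pooled summit only (grey). The strongest summits gather around 94 bp upstream, and the grey points spread over both sides of the start site.

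Called intervals were wide. The interval around the summit had a median length of 2144 bp in the 39 genes, against 2524 bp in pericentromeric genes and 372 bp in arm genes. It was 2205 bp for the strong genes, with a range of 662 to 4312 bp, and 430 bp for the weak ones, with a range of 224 to 597 bp, so the classes did not overlap in width. Arm genes above a relative signal of 2 had a median of 568 bp. Their signal was also lower, with a median of 3.16 against 10.2 for the strong chromosome 4 genes, so width was not compared at equal signal.

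Because the genes are packed closely, a summit could be assigned to more than 1 gene. The 39 genes drew on 35 distinct summits in 30 intervals. The highest-signal rule gave 1 summit to Taf3 and CG33941, to CG46466 and Slip1, to apolpp and Zyx and to Dyrk3 and Cadps, each a pair on opposite strands. Some of these genes also had a nearer IDR summit of lower signal. It lay 88 bp from a start site of CG33941, 138 bp from that of Slip1 and 29 bp from a start site of Zyx. In all, 8 intervals covered 17 of the genes. The widest, chr4:128718-133029, spanned the divergent start sites of Ank and anne with a separate summit for each, and another, chr4:659880-664102, covered gw, CG46466 and Slip1. Counting shared summits once left 35 in place of 39.

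Apart from binding, genes with and without an IDR summit had similar medians for what the annotation and the sequence give. The median gene span was 9095 bp in the 39 genes and 8718 bp in the 22, with ranges of 1159 to 44508 bp in the 39 genes and 687 to 52075 bp in the 22. A start site of another gene on the opposite strand lay within 1000 bp in 17 of 39, 43.6%, and in 9 of 22, 40.9%. Median GC content within 250 bp of the start site was 31.3% in the 39 genes and 33% in the 22, and 41.1% over all protein-coding genes. Soft-masked sequence means bases that the RefSeq genome marks in lower case. Its median share within 500 bp was 23.1% in the 39 genes and 21.5% in the 22, and 13.2% over all protein-coding genes. GC content and this share were read at the start site nearest to the summit in the 39 genes. In the 22 and over all protein-coding genes they were read at the 5′-most start site. A transposable element lay within 500 bp in 7 of 39 and 4 of 22 genes. The differences in span, opposite-strand neighbours, GC content and soft-masked share each changed sign under at least 1 other setting. More than 1 start site was annotated for 20 of the 39 genes and 9 of the 22, with a median of 2 start sites in the 39 genes and 1 in the 22. Each further start site gives a summit another place to be counted, so this difference is in part built into the count. With only the 5′-most start site, 34 of the 61 genes had an IDR summit.

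**Figure D5:**
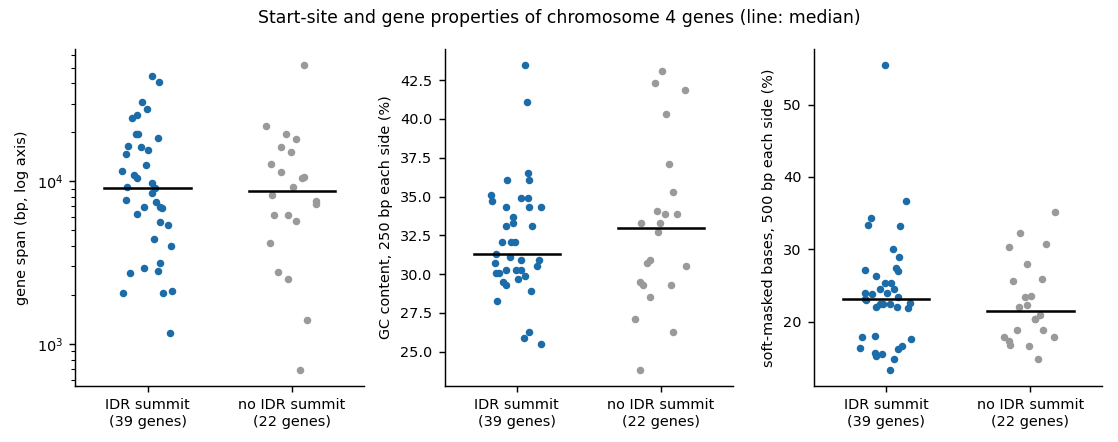
Gene span (bp, log axis), GC content within 250 bp of the start site (percent) and soft-masked share within 500 bp (percent) for 39 genes with an IDR summit and 22 without; points are genes and lines are medians. The groups overlap over most of their range in all 3 panels.

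Sequence motifs were looked for on both strands from 250 bases before to 50 after the start site, 8 motifs in all. TATCGATA was found in 5 of 39 genes with an IDR summit and in 0 of 22 without. A count of 0 leaves room for about 13.6%, taken as 3 divided by 22 and not as a Wilson limit. TATCGATA was found in 9.36% of all promoters of that length, and in 15% of arm genes and 6.74% of pericentromeric genes with an IDR summit. Its holders were Crk, Hcf, Taf3, Actbeta and PIP4K, which range from 0.663 to 12.7 in relative signal. The difference of 12.8 percentage points was 7.11 without replicate 4. The shorter CGATA, which TATCGATA contains, was found in 23 of 39 genes with an IDR summit and 8 of 22 without, 59% and 36.4%, against 47.4% of all promoters. That difference of 22.6 percentage points was 11.6 with the strongest peaks of replicate 6 alone and 33.6 with those of replicate 4 alone. GGTCACAC was found in 5 of 39 and 0 of 22 genes and in 7.7% of all promoters. Its holders were Rad23, apolpp, Zyx, Dyrk3 and Cadps, all between 10.7 and 12, but apolpp with Zyx and Dyrk3 with Cadps read the same site from opposite strands. CAGCTG was found in 4 of 39 and 0 of 22 genes, against 17.7% of all promoters, and its difference of 10.3 points was 4.33 without replicate 4.

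GAGAG was found in 9 of 39 genes with an IDR summit and 3 of 22 without, 23.1% and 13.6%, against 29.8% of all promoters. TATAAA, the core of the box that binds the TATA-binding protein, was found in 20 of 39 and 9 of 22 genes, 51.3% and 40.9%, against 45.9%. CACACACA was found in 1 of 39 and 0 of 22 genes, against 4.03%. GCCAT was the only one of the 8 with a lower share in genes with an IDR summit, 17.9% (7 of 39) against 31.8% of genes without one (7 of 22), and it was found in 41.3% of all promoters. That difference of -13.9 points was -2.78 at a distance of 1000 bp and -8.74 at the 5′-most start sites. The sign of the difference changed at a distance of 250 bp for GAGAG (-0.556 points), at the 5′-most start sites for TATAAA (-5.01 points) and without replicate 4 for CACACACA (-4 points). Over the 80 promoters of chromosome 4, these genes included, the shares often differed from those of all promoters. They were 8.75% for TATCGATA, 52.5% for CGATA, 5% for GGTCACAC and 3.75% for CAGCTG. For GAGAG they were 23.8%, for TATAAA 37.5%, for CACACACA 1.25% and for GCCAT 30%. All promoters and the 22 genes without an IDR summit were read at the 5′-most start site. Genes with an IDR summit were read at the start site nearest to it, so the groups were not read alike. A match describes these letters in this window only.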

How the data were processed

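Su(var)2-HP2-GFP ChIP-seq from embryos was given as 4 peak lists on dm6, per the labels. Per the deposited file listing, each replicate's list was made from its own alignment and a common control, the pooled list from both, and the IDR list from these lists. The aligner is not given in the sources used here, nor is the peak caller, and control reads were not analysed here. The signal of a deposited peak is the authors' score from peak calling. The deposited −log10 q-values have a ceiling of 3.98 in the pooled list and do not rank strong peaks. Per-sample columns left unused numbered 0.

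Start sites came from Ensembl release 115. Pericentromeric parts were the first 5.4 Mb of 2R and 4.2 Mb of 3R, X and 2L after 22 Mb, and 3L after 23 Mb, all rounded. Summits were matched to start sites with Python 3.11.15, numpy 2.4.6 and scipy 1.17.1, and the matching was tested on simulated data. Shares have Wilson 95% intervals. No p-values were computed, since there is 1 group. The 2 replicates are biological replicates per the labels, and whether they came from separate collections is not given there.

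The genes, role groups, motifs and alternatives were chosen with earlier results of these data known. Full values are given for the 12 strongest and 4 weakest genes with an IDR summit, the 8 strongest without one, genes in no list and the 4 that differed most between replicates. Of these, 1 gene is counted but not reported here by name. Other genes were named after their values were seen. Alternatives were other distances, peak sets, start sites, scales and windows, and each replicate left out.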

Additional observations from a re-analysis of the deposited data

How the results depend on the processing

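The count of 39 genes with an IDR summit stayed between 34 and 45 under every alternative run, and was 36 to 43 with a replicate left out. The comparison count of 1196 other protein-coding genes was 655 with the upper 1003 IDR peaks and 742 when the interval had to overlap a start site; the genes described here then numbered 36 and 39. Median relative signal, 8.12, was 3.97 on the mean scale, 51.1 on the whole-list scale, and 6.18 to 9.18 with a replicate left out. The median summit position was -108 to -91 bp with a replicate left out.

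Between genes with and without an IDR summit, the differences in gene span, opposite-strand neighbours, GC content, soft-masked share, GAGAG and also TATAAA and CACACACA changed sign under at least 1 alternative. Gene span, 376 bp longer with a summit, was -472 bp at 250 bp and -1419 to 1968 bp with a replicate left out. Opposite-strand neighbours, 2.68 percentage points, gave 15.4 at 1000 bp, -4.2 for neighbours within 500 bp, and -2.58 to 4.44 with a replicate left out. GC content, -1.7 points, was 1.49 in windows of 100 bp and -0.525 in windows of 1000 bp. It was -1.5 at a distance of 250 bp, -2.2 at 1000 bp, -0.998 with either stricter peak set, -1.3 with strong genes only and -1.2 to -0.998 with a replicate left out. The soft-masked share, 1.55 points, was -4.73 in windows of 100 bp, 0.625 in windows of 1000 bp, 0.949 at 250 bp, 2.7 at 1000 bp, 0.5 with either stricter peak set, 2.45 at 5′-most start sites, 1.25 with strong genes only and 0.5 to 0.899 with a replicate left out. GAGAG was -0.556 at 250 bp, TATAAA -5.01 at 5′-most start sites, and CACACACA -4 with either stricter peak set and -4 to 2.33 with a replicate left out. The causes were not tested.

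Strong genes only, and the chromosome without its longest stretch lacking IDR summits, were alternatives chosen after seeing the data. No paired analysis was possible because there is 1 group. The main limits are 2 replicates, unknown depth, an unstated signal scale and neighbouring genes that share peaks.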

Other observations

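Gene bodies were read at summits more than 500 bp from any start site. The 39 and the 22 genes were grouped by their start-site signal, so a contrast at start sites is built in. Only the body values are compared here. In the 39 genes with an IDR summit at a start site, 523 such pooled summits lay in gene spans of 477 kb, 1.1 per kb. In the 22 genes without one there were 320 in 250 kb, 1.28 per kb. The spans include the parts within 500 bp of start sites, where no summit was counted, so both densities are too low. The 39 genes had a median of 2 start sites and the 22 of 1, so the densities were not compared on equal terms. The highest relative signal in a gene's body had a median of 0.37 in the 39 genes and 0.435 in the 22. An IDR summit inside the body was found in 6 of the 39 genes, with 15 summits in all, and in 5 of the 22, with 7 summits. Summits in overlapping genes are counted in each, so Kif3C of the 22 and CG32017 of the 39 add shared summits to both totals. The 5 were JYalpha, Pur-alpha, Cals, Kif3C and CG33521, so these genes held an IDR summit in their body and none within 500 bp of a start site.

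The highest body signals stood in long and in short genes. Cadps, with 5 IDR summits in 40.9 kb, reached 2.45 at position 1234930. Kif3C and CG32017, which overlap on opposite strands, share a summit of 2.41 at position 1156465. Rnf11 followed at 1.25, Mitf at 1.23, myo, which spans 5.37 kb, at 1.22, and JYalpha, which spans 4.16 kb, at 1.18. In Rnf11, Mitf, myo and JYalpha this summit lay near the 5′ end of the gene. For Rnf11 it was at 315734, inside the interval of its promoter summit, chr4:313433-316139. For Mitf it was at 1199437, with the 5′ end at 1198852. For myo it was at 695272, with the start site at 696055. For JYalpha it lay 736 bp from the start site. Whether these summits were separate from promoter binding was not tested. bt, with 76 pooled summits over 52.1 kb, had 0 IDR summits and a highest value of 0.451. In the stretch without IDR summits that holds bt, 53 of 122 pooled summits had a q-value under 0.05. RhoGAP102A, without a summit at its start site, had 14 pooled summits in its body and a highest value of 0.489. These genes were chosen after their values were seen.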
